A study of Mus musculus with 12 samples.

Results

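The genes described here are 42 mouse genes of DNA replication and S phase, the phase in which a cell copies its genome. They were chosen by name from the machinery of replication and the regulators of S phase entry, with earlier results of these data known. They are 42 of the 49671 genes in the count files. Counts of members that passed therefore describe this list and are not independent evidence. The RNA came from regulatory T cells (Tregs), the Foxp3-expressing CD4 T cells that hold immune reactions in check, of C57BL/6 mice aged 8 weeks. The 4 groups, with 3 libraries each, were iTregs of Gclc mutant mice, iTregs of wild-type (WT) mice, nTregs of Gclc mutant mice and nTregs of WT mice. Gclc encodes the catalytic subunit of the rate-limiting enzyme of glutathione synthesis. The name nTregs stands for Tregs taken freshly from the animal, and iTregs for Tregs made in culture from naive CD4 T cells. Which allele the mutant mice carry, what drives its deletion, the sex of the mice and how long the culture lasted are not stated in the labels. The labels do not say whether the 3 libraries of a group are separate animals or cultures. The p-values therefore describe the spread between these libraries, which may be technical.

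A chromosome is copied once per cell division. Origins are marked by the origin recognition complex, Cdc6 and Cdt1, which load the MCM2-7 helicase in the G1 phase. In S phase the helicase is activated by Cdc45 and the GINS complex, and polymerases copy the strands behind it, held by the ring-shaped clamp PCNA. E2F transcription factors and cyclin E switch on many of these genes as cells leave rest, so their transcripts are widely used as a sign of cycling cells. In bulk RNA, more cells in S phase and more of these transcripts in each cycling cell cannot be told apart.

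Library totals ran from 28707579 to 39886130 counts. Mutant libraries all had less Gclc than WT libraries of the same cell type, with log2 fold changes of -1.46 ± 0.08 (SE) in iTregs and -0.81 ± 0.07 in nTregs. Foxp3 was detected in all 12 libraries, at 92.9 ± 15.9 CPM in mutant iTregs against 293 ± 6.89 CPM in WT iTregs, and at 178 ± 41.2 CPM in mutant nTregs against 578 ± 28.5 CPM in WT nTregs (SD, n = 3 each). CPM are counts scaled to the same library total. Values by library are given below in the order of replicates 1, 2 and 4 for mutant groups and 1, 2 and 3 for WT groups, and gene coordinates are those of the count files (GRCm38). nTreg mutant replicate 1 stood apart from the other nTreg libraries: its 16 markers of CD8 T and NK cells summed to 1805 CPM, against 258 and 214 CPM in nTreg mutant replicates 2 and 4 and 89.9 to 105 CPM in WT nTregs. Cd8a, Nkg7, Gzma and Gzmb stood at 219, 190.5, 220.1 and 585 CPM there. The same library was the highest of the 3 mutant nTreg libraries for 41 of the 42 replication genes, so results in nTregs are given with and without it. For how many of all tested genes it was the highest was not counted. In iTregs these markers summed to 141 to 179.5 CPM in the mutant and 100.5 to 149 CPM in WT, with Ncr1, Gzma and Gzmk at 0 in every library. B cell markers summed to 26.1 to 29.3 CPM in mutant iTregs and 22.6 to 26.4 CPM in WT iTregs, and to 344 to 675 CPM in mutant nTregs and 466 to 720.2 CPM in WT nTregs.

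The promoters of the 42 genes were searched for the words bound by E2F factors, whether or not a gene changed in these data. Since the genes were chosen by name, the shares below describe the list and not its response to the mutation. RefSeq promoter windows (GRCm38.p6, 250 bases before the start of transcription to 50 after it) were at hand for 35 of the 42 genes, and not for Mcm4, Gins1, Gins2, Prim2, Pole, Rfc2 and Ccne2. The words searched, on both strands, were TTTCCCGC, TTTGGCGC, TTTCGCGC and TTTGCCGC. At least 1 of them lay in 13 of the 35 windows (37.1%), against 704 of the 27025 genes in the table (2.6%). TTTCCCGC, TTTGGCGC and TTTCGCGC were each found at 6 of the 35 genes (17.1%), against 1.24%, 0.585% and 0.374% of all genes, and TTTGCCGC at 0 of 35 against 0.507%. The word CCAAT, bound by NF-Y, lay in 22 windows (62.9%, against 41.1% of all genes), and TTTGAA, the core of the cell cycle homology region, in 6 (17.1%, against 20.2%). A match is a description of the letters and not a measured binding site.

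Sequences are shown for the genes with an E2F word whose values are given by library below, and for Mcm5 and Mcm6, which were added after the matches had been seen. They run 5′ to 3′ along the gene's strand, with words found on either strand in capitals, and the first base of the transcript counts as 1.
Mcm3 promoter (chr1:20820266-20820295, minus strand, bases 18 to 47): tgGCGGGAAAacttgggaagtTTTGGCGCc
Mcm5 promoter (chr8:75109336-75109387, plus strand, bases -173 to -122): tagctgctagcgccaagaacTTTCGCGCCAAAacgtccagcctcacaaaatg
Mcm6 promoter (chr1:128359725-128359835, minus strand, bases -130 to -20): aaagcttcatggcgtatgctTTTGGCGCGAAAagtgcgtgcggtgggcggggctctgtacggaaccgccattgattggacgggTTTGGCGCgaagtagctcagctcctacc
Orc1 promoter (chr4:108579407-108579453, plus strand, bases -47 to -1): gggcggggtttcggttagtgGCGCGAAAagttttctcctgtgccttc
Cdt1 promoter (chr8:122568035-122568064, plus strand, bases 21 to 50): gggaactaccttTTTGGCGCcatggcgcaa
Gins3 promoter (chr8:95633498-95633545, plus strand, bases -61 to -14): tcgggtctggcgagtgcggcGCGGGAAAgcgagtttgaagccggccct
Pold1 promoter (chr7:44548766-44548795, minus strand, bases 21 to 50): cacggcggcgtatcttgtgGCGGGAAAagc
Lig1 promoter (chr7:13278841-13278870, plus strand, bases 16 to 45): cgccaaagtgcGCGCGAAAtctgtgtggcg
E2f2 promoter (chr4:136172294-136172323, plus strand, bases 21 to 50): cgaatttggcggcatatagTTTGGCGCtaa
The words at Orc1, Gins3, Mcm5 and Mcm6 lay before the start of transcription, and those at Mcm3, Cdt1, Pold1, Lig1 and E2f2 after it, by the start that RefSeq gives. By the gene starts in the count files the words of Orc1 and Gins3 lie after the start and that of E2f2 before it. In Mcm5 the words TTTCGCGC and TTTGGCGC (on the other strand) overlap in the stretch TTTCGCGCCAAA, and Mcm6 holds its reverse complement, TTTGGCGCGAAA. On either strand this stretch of 12 bases was in the windows of 4 of the 27025 genes (0.0148%).

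Setting mutant against WT nTregs addresses how a Gclc mutation changes replication genes in Tregs taken from the animal. All 42 genes rose in mutant nTregs and 0 fell (edgeR quasi-likelihood test, Benjamini-Hochberg adjusted p below 0.05 over 17977 genes), where 19.3% of all tested genes rose and 15.6% fell. The median log2 fold change of the 42 was 1.11, or 2.16-fold, beside 0.04 over all tested genes. Values ran from 0.35 for Rpa1 to 1.91 for Rrm2, and 26 of the 42 rose at least 2-fold. How many of all tested genes rose at least 2-fold was not counted, here or in the fit without replicate 1 below. Every mutant nTreg library lay above every WT nTreg library for each of the 42 genes, which was so for 25.7% of all tested genes (22.6% in the opposite direction). Of all genes, 3471 rose and 2798 fell, and with library size alone as the scaling 4161 and 2201. Without nTreg mutant replicate 1, 3359 of 18387 tested genes rose and 2065 fell, with a median log2 fold change of 0.06. All 42 again passed as higher in that fit, 17 of them at 2-fold or more. Their median was 0.90, with a range from 0.24 to 1.498. The CD8 T and NK cell markers moved with this result, 12 of 16 higher in mutant nTregs and 9 of 16 without replicate 1, where their summed level was 214 and 258 CPM. Myeloid markers summed to 79.3 to 113 CPM in mutant nTregs and 56.9 to 61.6 CPM in WT nTregs, and erythroid markers to 180 to 905 CPM and 112 to 389 CPM. The part of these cells in the result was not tested.

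**Figure D1:**
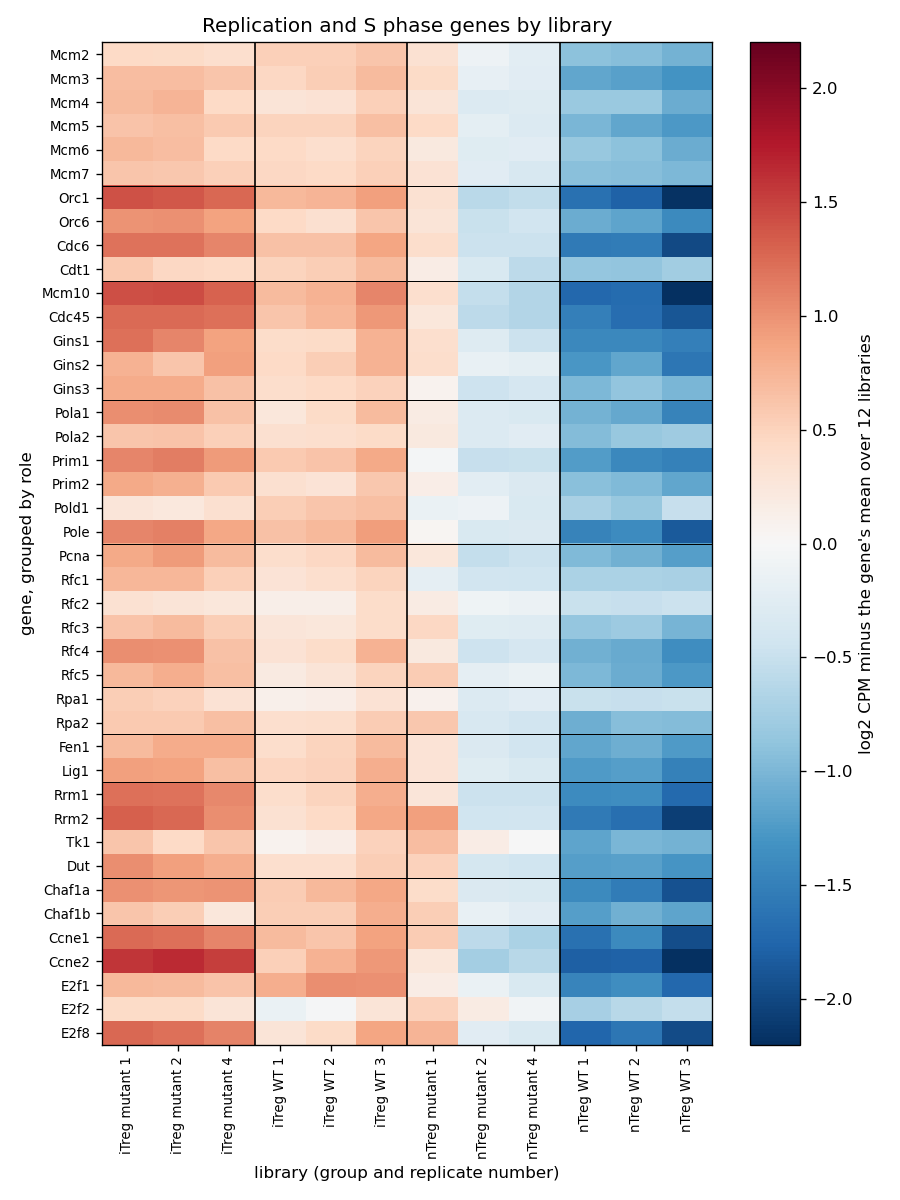
Level of each of the 42 genes (rows, grouped by role) in each of the 12 libraries (columns), as log2 CPM minus the gene's mean over the libraries. Red is above and blue below the gene's mean. The nTreg WT columns are the lowest, the nTreg mutant columns stand above them with replicate 1 the highest for 41 genes, and the iTreg columns are mostly red in both genotypes.

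The heat map shows the 42 genes moving as a block in nTregs, with mutant replicates 2 and 4 closer to the WT libraries than replicate 1 was. Among the 6 subunits of the MCM2-7 helicase, which unwinds DNA ahead of the polymerases, Mcm3 rose most and Mcm4 least. Mcm3 (ENSMUSG00000041859, chromosome 1, 20802968 to 20820312, minus strand) was at 232, 152 and 145 CPM in mutant nTregs, against 78.9, 75.3 and 69.9 CPM in WT nTregs. Its mutant and WT libraries did not overlap, and replicate 1 was the highest. Mcm3 rose by 1.24 ± 0.15 (SE) on the log2 scale (adjusted p = 0.000205) and by 1.02 without replicate 1. Mcm4 (ENSMUSG00000022673, chromosome 16, 15623897 to 15637400, minus strand) was at 265, 178 and 179 CPM in mutant nTregs, against 125, 125 and 103 CPM in WT nTregs, where mutant replicates 2 and 4 were nearly level. Mcm4 rose by 0.82 ± 0.15 (adjusted p = 0.00154). The other subunits rose by 0.98 ± 0.12 (Mcm2), 1.15 ± 0.16 (Mcm5), 0.86 ± 0.12 (Mcm6) and 0.88 ± 0.13 (Mcm7).

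Of the 4 genes that mark and license origins, Orc1, the largest subunit of the origin recognition complex, changed most. Orc1 (ENSMUSG00000028587, chromosome 4, 108579423 to 108614833, plus strand) was at 17.4, 9.15 and 9.46 CPM in mutant nTregs, against 4.41, 4.01 and 3.07 CPM in WT nTregs. Even the lowest mutant library held more than 2 times the level of the highest WT library. Orc1 rose by 1.65 ± 0.23 (adjusted p = 0.000394) and by 1.31 without replicate 1. Cdt1, which brings the helicase to the origin and is restrained by geminin, moved least. Cdt1 (ENSMUSG00000006585, chromosome 8, 122568015 to 122573554, plus strand) was at 27.2, 19.3 and 16.4 CPM in mutant nTregs, against 13.5, 13.3 and 14.3 CPM in WT nTregs, with mutant replicate 4 close above the WT libraries. Cdt1 rose by 0.61 ± 0.15 (adjusted p = 0.00729). Cdc6, the loader that acts beside Cdt1, rose by 1.55 ± 0.21 and Orc6, a further subunit of the origin complex, by 1.05 ± 0.17.

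The factors that turn the loaded helicase on rose by a median of 1.35 on the log2 scale. Mcm10, which acts at the activated helicase, was the largest of them. Mcm10 (ENSMUSG00000026669, chromosome 2, 4989714 to 5012791, minus strand) was at 50.3, 27.2 and 25.1 CPM in mutant nTregs, against 11.8, 12.02 and 7.16 CPM in WT nTregs. WT replicate 3 was the lowest library and mutant replicate 1 the highest. Mcm10 rose by 1.73 ± 0.25 (adjusted p = 0.000528) and by 1.38 without replicate 1. Gins3, a subunit of GINS, was at 19.1, 13.3 and 14.2 CPM in mutant nTregs, against 9.13, 9.94 and 9.08 CPM in WT nTregs (ENSMUSG00000031669, chromosome 8, 95633453 to 95645060, plus strand). The gap between its groups was narrower, and it rose by 0.72 ± 0.12 (adjusted p = 0.00119). Cdc45, the helicase partner, rose by 1.41 ± 0.20, and the GINS subunits Gins1 and Gins2 by 1.35 ± 0.20 and 1.35 ± 0.18.

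Polymerase genes did not rise evenly. Pole, the catalytic subunit of the polymerase of the leading strand, was at 95.4, 73.9 and 74.3 CPM in mutant nTregs, against 33.4, 35.7 and 25.7 CPM in WT nTregs (ENSMUSG00000007080, chromosome 5, 110286306 to 110337474, plus strand). Its mutant libraries all exceeded 2 times the highest WT library. Pole rose by 1.36 ± 0.14 (adjusted p = 0.000101). Pold1, the catalytic subunit of the polymerase of the lagging strand, was at 32.6, 33.5 and 28.5 CPM in mutant nTregs, against 21.9, 20.2 and 25.3 CPM in WT nTregs (ENSMUSG00000038644, chromosome 7, 44532746 to 44548849, minus strand). Here mutant replicate 2, not replicate 1, was the highest library, the only one of the 42 genes for which this was so. Pold1 rose by 0.49 ± 0.09 (adjusted p = 0.00187), and by 0.50 without replicate 1. The 4 genes of the polymerase alpha-primase complex, which lays down the primers, rose by 1.07 ± 0.17 (Pola1), 0.77 ± 0.11 (Pola2), 1.04 ± 0.13 (Prim1) and 0.89 ± 0.13 (Prim2).

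The clamp Pcna rose by 0.86 ± 0.17 on the log2 scale, and its loader, the replication factor C complex, rose unevenly across its 5 subunits. Rfc5 was at 63.8, 37.8 and 39.1 CPM in mutant nTregs, against 21.8, 20.3 and 18.1 CPM in WT nTregs (ENSMUSG00000029363, chromosome 5, 117378103 to 117389047, minus strand). Its mutant replicate 1 stood well above the other mutant libraries. Rfc5 rose by 1.22 ± 0.17 (adjusted p = 0.00044), against 0.97 without that library. Rfc1, the large subunit, was at 102, 87.3 and 86.1 CPM in mutant nTregs, against 72.0, 71.8 and 71.3 CPM in WT nTregs (ENSMUSG00000029191, chromosome 5, 65261850 to 65335670, minus strand). Its WT libraries were almost identical and the mutant libraries were a little higher, a rise of 0.35 ± 0.08 (adjusted p = 0.00648). Rfc2, Rfc3 and Rfc4 rose by 0.48 ± 0.09, 0.89 ± 0.16 and 0.996 ± 0.18.

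The single-strand binding protein RPA was represented by 2 subunits. Rpa2 (ENSMUSG00000028884, chromosome 4, 132768332 to 132778752, plus strand) was at 70.3, 36.4 and 34.7 CPM in mutant nTregs, against 21.9, 24.1 and 24.1 CPM in WT nTregs. Replicate 1 was about level with the iTreg libraries, while the other 2 mutant libraries were lower and close together. Rpa2 rose by 1.01 ± 0.21 (adjusted p = 0.00333), and by 0.63 ± 0.08 without replicate 1 (adjusted p = 0.000124). Rpa1 (ENSMUSG00000000751, chromosome 11, 75298166 to 75348324, minus strand) was at 202, 154 and 158 CPM in mutant nTregs, against 135, 134 and 134 CPM in WT nTregs. It had the smallest rise of the 42 genes, 0.35 ± 0.10 (adjusted p = 0.0189), and did not pass without any one of the WT nTreg libraries (highest adjusted p = 0.0637). Lig1, the ligase that joins Okazaki fragments, was at 133, 89.5 and 85.5 CPM in mutant nTregs, against 45.8, 46.8 and 38.7 CPM in WT nTregs (ENSMUSG00000056394, chromosome 7, 13277283 to 13311433, plus strand). Its groups were far apart, with a rise of 1.23 ± 0.16 (adjusted p = 0.000296). Fen1, the nuclease that trims those fragments, was at 61.3, 40.1 and 37.4 CPM in mutant nTregs, against 22.6, 23.8 and 20.9 CPM in WT nTregs (ENSMUSG00000024742, chromosome 19, 10199132 to 10204169, minus strand). Fen1 rose by 1.04 ± 0.16 (adjusted p = 0.000608).

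Genes of nucleotide supply included the largest rise of the 42. Rrm2, the regulated subunit of ribonucleotide reductase, was at 319, 126 and 128 CPM in mutant nTregs, against 58.3, 54.2 and 40.4 CPM in WT nTregs (ENSMUSG00000020649, chromosome 12, 24708241 to 24714146, plus strand). The mean rested heavily on replicate 1, which stood at over 2 times the other mutant libraries. Rrm2 rose by 1.91 ± 0.31 (adjusted p = 0.000916), and by 1.35 ± 0.16 without that library (adjusted p = 9.7e-05). Dut, which removes dUTP so that uracil is kept out of DNA, was at 113, 60.3 and 58.3 CPM in mutant nTregs, against 34.2, 34.5 and 32.0 CPM in WT nTregs (ENSMUSG00000027203, chromosome 2, 125247190 to 125258608, plus strand). Dut rose by 1.20 ± 0.20 (adjusted p = 0.00101), and by 0.85 without replicate 1. Rrm1, the partner of Rrm2, rose by 1.30 ± 0.18 and Tk1, the S phase thymidine kinase, by 1.37 ± 0.16.

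Both subunits of chromatin assembly factor 1, which places histones on new DNA, rose. Chaf1a was at 59.5, 36.4 and 35.8 CPM in mutant nTregs, against 17.2, 15.5 and 12.03 CPM in WT nTregs (ENSMUSG00000002835, chromosome 17, 56040416 to 56068026, plus strand). Its WT libraries were the lowest and the mutant replicates 2 and 4 almost equal, a rise of 1.56 ± 0.18 (adjusted p = 0.000205). Chaf1b was at 35.9, 22.04 and 20.7 CPM in mutant nTregs, against 10.6, 11.9 and 11.1 CPM in WT nTregs (ENSMUSG00000022945, chromosome 16, 93883901 to 93906115, plus strand), a rise of 1.23 ± 0.18 (adjusted p = 0.000616). Among the regulators of S phase entry, E2f8, a repressor of the E2F family made in S phase, changed most. E2f8 was at 60.1, 30.3 and 28.6 CPM in mutant nTregs, against 10.8, 12.02 and 9.14 CPM in WT nTregs (ENSMUSG00000046179, chromosome 7, 48866429 to 48881596, minus strand). E2f8 rose by 1.90 ± 0.26 (adjusted p = 0.000363), and by 1.498 without replicate 1, the largest value of the 42 genes in that fit. E2f2, an activator of the family, was at 109, 86.5 and 73.0 CPM in mutant nTregs, against 46.5, 50.5 and 53.2 CPM in WT nTregs (ENSMUSG00000018983, chromosome 4, 136172394 to 136196057, plus strand). Its WT libraries were the highest among the 3 E2F genes, without overlap with the mutant, and it rose by 0.84 ± 0.14 (adjusted p = 0.000995). The activator E2f1 rose by 1.41 ± 0.13, with the smallest adjusted p of the 42 genes (9.09e-05). The cyclins Ccne1 and Ccne2, partners of the kinase Cdk2 at S phase entry, rose by 1.52 ± 0.27 and 1.64 ± 0.23.

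Members with and without an E2F word in the promoter window both rose in nTregs. The median log2 fold change was 0.89 for the 13 genes with a word and 1.21 for the 22 without one.

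In cultured cells the genotype made a smaller difference to these genes, and the number that passed depended on the fit. Of the 42 genes, 6 rose in mutant iTregs (14.3%), where 14.0% of all tested genes rose, and 1 fell (2.38%), where 11.4% of all tested genes fell. The median log2 fold change was 0.31, beside 0.04 over all tested genes. Of the 42 values, 37 lay above 0, among them Mcm5 and Rfc2 at 0.07 and 0.06, which turned to -0.02 and -0.03 with library size alone as the scaling. Every mutant iTreg library lay above every WT iTreg library for 22 genes, against 26.8% of all tested genes, and below it for 3 (Mcm2, Pold1 and E2f1), against 19.7%. Of all genes 2517 rose and 2044 fell, and with library size alone 1606 and 2921. No member passed in all 12 fits that left out 1 library each: without iTreg mutant replicate 2, or iTreg WT replicate 1 or 2, 0 rose by edgeR, with 9, 9 and 10 at an unadjusted p below 0.05. Without nTreg mutant replicate 1, whose spread enters the shared error, 24 of the 42 rose (57.1%) and 3 fell (7.14%), where 17.2% of all tested genes rose and 16.8% fell. With the 6 iTreg libraries alone 22 rose (52.4%) and 3 fell (7.14%), where 17.8% of all tested genes rose and 17.4% fell.

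The 6 genes that passed as higher in mutant iTregs, each from a different role, were 14.3% of the 42. That share was close to the 14.0% of all tested genes. Ccne2, a cyclin E, was at 96.1, 101.2 and 92.5 CPM in mutant iTregs, against 46.5, 54.9 and 62.2 CPM in WT iTregs. The groups were well apart, and Ccne2 rose by 0.82 ± 0.21 on the log2 scale (adjusted p = 0.0162), a call lost without iTreg mutant replicate 2 or iTreg WT replicate 1 or 2 (highest adjusted p = 0.0822). Rrm1, the large subunit of ribonucleotide reductase, was at 601, 589.5 and 540.1 CPM in mutant iTregs, against 340.5, 364 and 449 CPM in WT iTregs. WT replicate 3 was the closest to the mutant libraries, and Rrm1 rose by 0.58 ± 0.18 (adjusted p = 0.0314). Gins1 was at 25.7, 23.3 and 20.6 CPM in mutant iTregs, against 14.8, 14.8 and 18.8 CPM in WT iTregs, and rose by 0.52 ± 0.18 (adjusted p = 0.049). Orc6 was at 80.3, 80.5 and 74.3 CPM in mutant iTregs, against 54.5, 51.5 and 61.8 CPM in WT iTregs, and rose by 0.49 ± 0.17 (adjusted p = 0.0482). For both of these genes the p lay just under the threshold, and neither overlapped between genotypes. Prim1, the catalytic subunit of primase, was at 134, 138 and 121 CPM in mutant iTregs, against 94.8, 97.3 and 113 CPM in WT iTregs, and rose by 0.36 ± 0.12 (adjusted p = 0.0436). Rfc1 was at 194, 192 and 167 CPM in mutant iTregs, against 142, 151 and 163 CPM in WT iTregs, with the highest WT library just below the lowest mutant one. Rfc1 rose by 0.28 ± 0.08 (adjusted p = 0.0277), a size near its rise in nTregs. With 1 library left out at a time, Rrm1 and Rfc1 passed in 8 of 12 fits, Gins1 and Prim1 in 5 and Orc6 in 3, and their highest adjusted p was 0.172.

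Pold1 went the other way. It was at 43.3, 42.2 and 45.9 CPM in mutant iTregs, against 52.2, 55.3 and 57.0 CPM in WT iTregs, every mutant library below every WT library. Pold1 fell by 0.32 ± 0.09 (adjusted p = 0.0201), and passed in 8 of 12 fits with 1 library left out. The 4 calls lost were those without iTreg mutant replicate 1 or 2 or iTreg WT replicate 2 or 3 (highest adjusted p = 0.0708). E2f1 and Mcm2 did not pass, with log2 fold changes of -0.26 ± 0.12 (adjusted p = 0.132) and -0.15 ± 0.12 (adjusted p = 0.363). Within the helicase none of the 6 subunits passed in iTregs, and their values ran from -0.15 to 0.25 on the log2 scale.

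**Figure D2:**
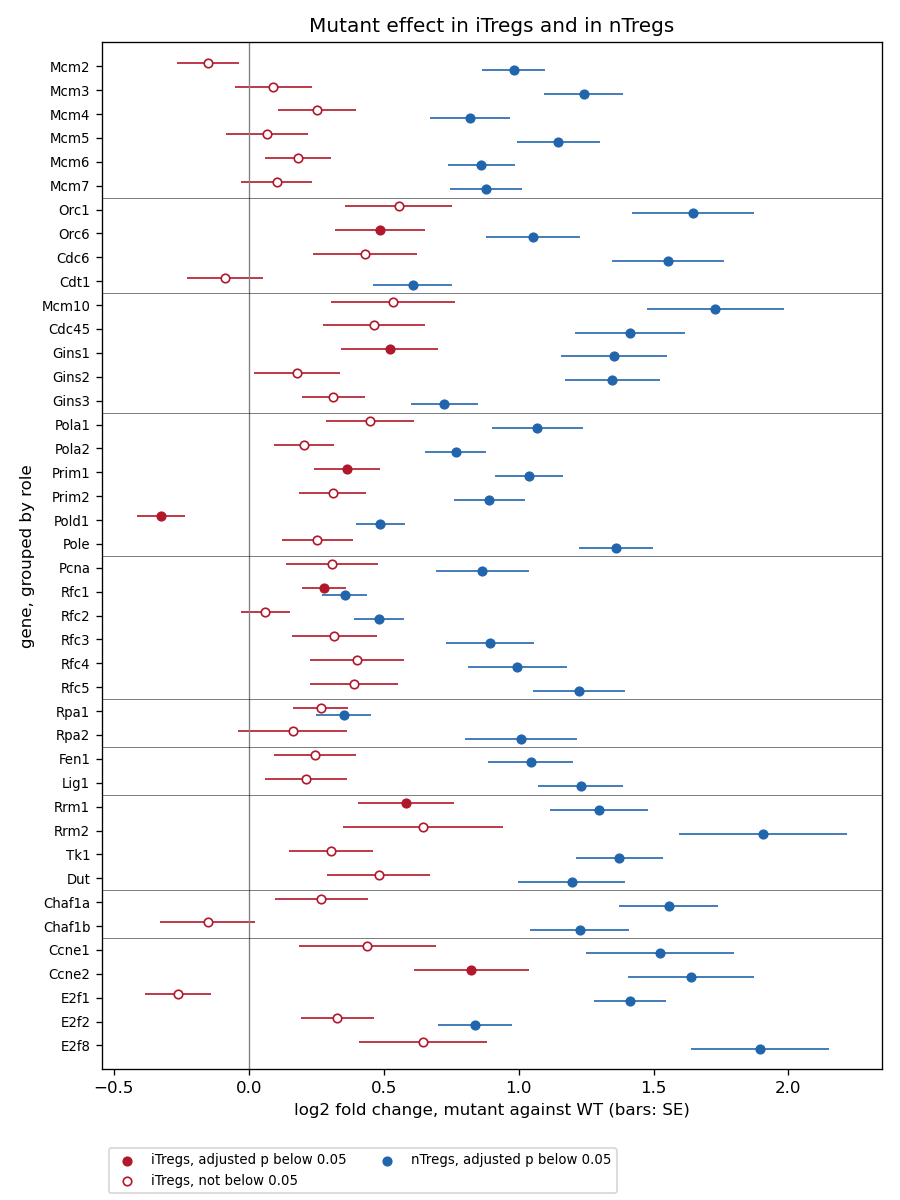
Log2 fold change of mutant against WT for each of the 42 genes, in iTregs (red) and nTregs (blue), with its SE as a bar. Filled points have an adjusted p below 0.05. All 42 nTreg points lie right of 0, between 0.35 and 1.91, and the iTreg points lie between -0.32 and 0.82.

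The plot of both effects shows that the iTreg value was below the nTreg value for each of the 42 genes. The difference of the effects (iTreg effect minus nTreg effect) was tested as an interaction in the same fit. It was below 0 for 24 genes and above 0 for 0 at an adjusted p below 0.05, where 7.18% of all tested genes passed below 0 and 6.12% above it. The median difference of the 42 was -0.81 on the log2 scale, beside -0.003 over all tested genes. Over all genes 1101 passed above 0 and 1291 below, and with library size alone 518 and 2393. That scaling moved the median of all genes to -0.14 in this comparison and to -0.20 in mutant iTregs against mutant nTregs. Relative to it the median of the 42 differences was -0.81 with either scaling. Leaving out 1 library at a time gave 12 (without iTreg WT replicate 3, or nTreg WT replicate 2 or 3) to 33 genes (without nTreg mutant replicate 1, median -0.61). The 11 genes that passed in all 12 of these fits were Mcm2, Mcm3, Mcm5, Gins2, Pold1, Pole, Lig1, Tk1, Chaf1a, Chaf1b and E2f1. Across the 42 genes the 2 effects, which share no library, had Pearson's r of 0.514 and Spearman's rho of 0.514, beside an r of 0.336 over all tested genes. Genes are not independent replicates, and no test was made.

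E2f1, the activator that drives many of the other members, gave the largest and best resolved difference. It was at 23.9, 23.7 and 22.7 CPM in mutant iTregs, against 25.3, 29.7 and 29.3 CPM in WT iTregs. In freshly isolated cells it was at 16.4, 13.3 and 11.6 CPM in mutant nTregs, against 5.36, 5.69 and 4.43 CPM in WT nTregs. Its mutant libraries lay below WT in culture and above WT in the animal, without overlap in either, but the iTreg effect did not pass. Of all tested genes 19.7% lay below WT without overlap in iTregs, and 25.7% above it in nTregs. The effects were -0.26 ± 0.12 in iTregs (adjusted p = 0.132) and 1.41 ± 0.13 in nTregs, and their difference was -1.67 ± 0.18 (adjusted p = 0.00156). Mcm2, a helicase subunit, was at 150.3, 148 and 143 CPM in mutant iTregs, against 160.3, 159 and 170.1 CPM in WT iTregs. In freshly isolated cells it was at 141, 103 and 94.5 CPM in mutant nTregs, against 59.6, 57.7 and 53.9 CPM in WT nTregs. As for E2f1, the order of the libraries was opposite in the 2 cell types, but the iTreg effect did not pass (-0.15 ± 0.12, adjusted p = 0.363). The difference for Mcm2 was -1.13 ± 0.16 (adjusted p = 0.00309). Pold1 passed in both cell types with opposite signs, and its difference was -0.81 ± 0.13 (adjusted p = 0.00352). For Rfc1 and Rpa1 the effects were close, with differences of -0.08 ± 0.12 (adjusted p = 0.718) and -0.09 ± 0.14 (adjusted p = 0.746).

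**Figure D3:**
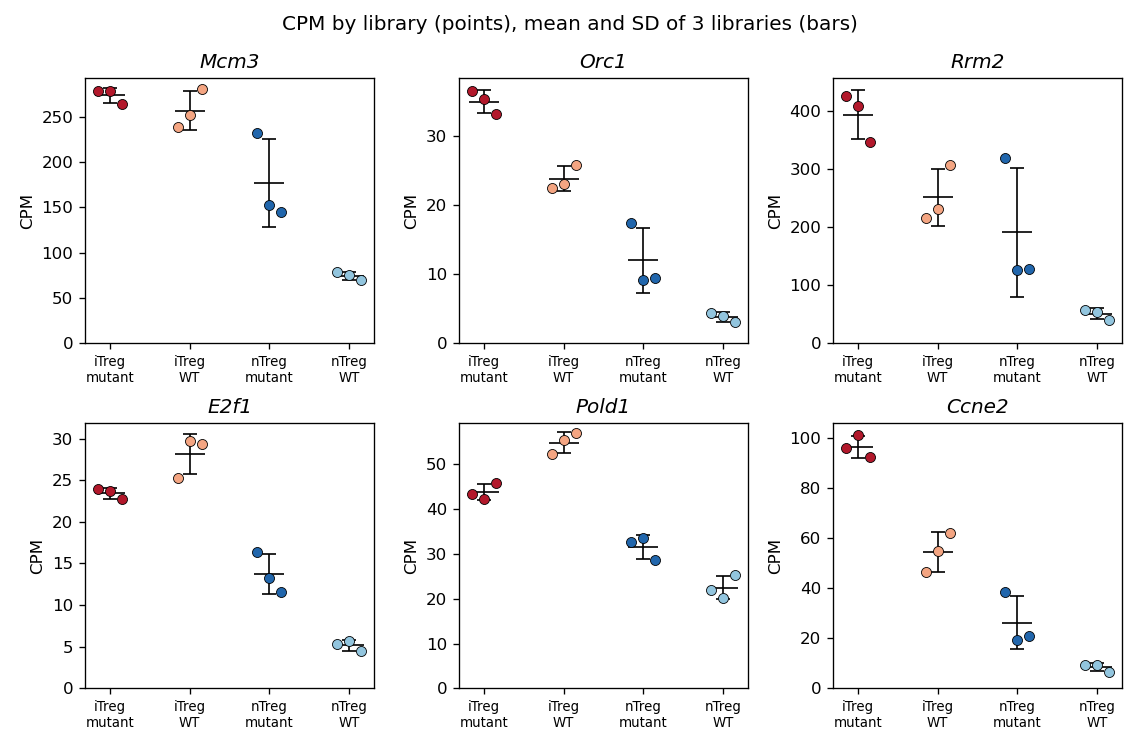
CPM in each library (points) with mean and SD of 3 libraries (bars) for Mcm3, Orc1, Rrm2, E2f1, Pold1 and Ccne2. In nTregs the mutant points lie above the WT points in all 6 panels. In iTregs they lie above for Orc1, Rrm2 and Ccne2, below for E2f1 and Pold1, and overlap for Mcm3.

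The 6 panels include Rrm2 and Mcm3, for which the iTreg effect did not pass. Rrm2 was at 426, 409 and 346 CPM in mutant iTregs, against 216, 232 and 308 CPM in WT iTregs, and its log2 fold change there was 0.65 ± 0.30 (adjusted p = 0.128). Mcm3 was at 278, 278 and 264 CPM in mutant iTregs, against 238, 251 and 281 CPM in WT iTregs, where WT replicate 3 was above all mutant libraries. Orc1 was at 36.5, 35.3 and 33.1 CPM in mutant iTregs, against 22.5, 23.1 and 25.9 CPM in WT iTregs, without overlap, and just missed the threshold at 0.56 ± 0.20 (adjusted p = 0.0555). Across the 42 genes WT replicate 3 was the highest WT iTreg library for 41, and mutant replicate 4 the lowest mutant iTreg library for 36. The spread between iTreg libraries thus ran in common through most of the 42 genes. How many of all tested genes had the same highest or lowest library was not counted.

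Comparing the cell types asks how cultured, induced Tregs differ from freshly isolated ones, and here culture and cell type cannot be told apart. In WT cells all 42 genes were higher in iTregs than in nTregs and 0 lower, where 33.7% of all tested genes were higher and 35.7% lower. The median log2 fold change was 1.68, or 3.20-fold, from 0.67 for E2f2 to 2.77 for Mcm10, and 39 genes were at least 2-fold higher. How many of all tested genes were at least 2-fold higher was not counted. Mcm10 averaged 70.4 ± 10.2 CPM in WT iTregs and 10.3 ± 2.74 CPM in WT nTregs (SD, n = 3 each). Ccne2 averaged 54.5 ± 7.87 CPM in WT iTregs and 8.42 ± 1.60 CPM in WT nTregs, and Orc1 23.8 ± 1.81 and 3.83 ± 0.69 CPM. These were the 3 largest differences, at 2.77 ± 0.26, 2.70 ± 0.24 and 2.64 ± 0.22 on the log2 scale. All 42 passed in every alternative fit.

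In mutant cells the gap between the cell types was smaller, 39 of the 42 genes being higher in iTregs and 0 lower, where 33.2% of all tested genes were higher and 35.0% lower. Of all genes 5968 were higher and 6293 lower, and with library size alone 4397 and 7832. The median log2 fold change was 0.89, or 1.85-fold, and 1.02 without nTreg mutant replicate 1. The genes that did not pass were Tk1 at 0.25 ± 0.16 (adjusted p = 0.17), Chaf1b at 0.39 ± 0.18 (adjusted p = 0.0647) and E2f2 at 0.15 ± 0.14 (adjusted p = 0.329), which turned to -0.03 with library size alone. E2f2 was at 103, 103.0 and 92.9 CPM in mutant iTregs and at 109, 86.5 and 73.0 CPM in mutant nTregs, so that the groups overlapped. The Rpa2 call, 0.59 ± 0.20, was 0.91 without nTreg mutant replicate 1 and was lost without iTreg mutant replicate 4 or nTreg mutant replicate 2 or 4 (highest adjusted p = 0.0864). This comparison and that of the WT cells share no library, but each shares its groups with the comparisons of genotype.

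**Figure D4:**
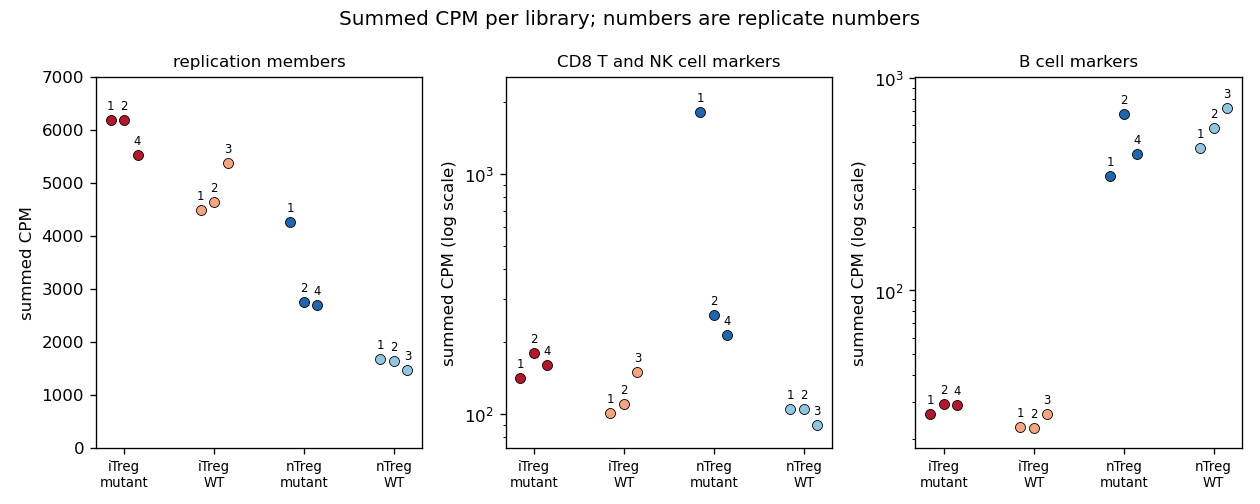
Summed CPM per library of the 42 genes, of 16 markers of CD8 T and NK cells and of 13 markers of B cells, with replicate numbers beside the points. The 42 genes sum to 5525 to 6196 CPM in mutant iTregs, 4499 to 5381 in WT iTregs, 2701 to 4277 in mutant nTregs and 1484 to 1682 in WT nTregs. nTreg mutant replicate 1 is the highest nTreg library for the 42 genes and by far the highest of all 12 for the CD8 T and NK cell markers.

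Summed per library, the plot of summed levels puts the 4 groups in one order. The 42 genes together reached 6196, 6187 and 5525 CPM in mutant iTregs, against 4499, 4647 and 5381 CPM in WT iTregs. They reached 4277, 2756 and 2701 CPM in mutant nTregs, against 1682, 1653 and 1484 CPM in WT nTregs. No library of a group overlapped a library of another group in this sum, although WT iTreg replicate 3 came close to mutant iTreg replicate 4. The mean log2 CPM over the 42 genes was 6.61 ± 0.07 in mutant iTregs, 6.32 ± 0.14 in WT iTregs, 5.68 ± 0.38 in mutant nTregs and 4.58 ± 0.12 in WT nTregs (SD over 3 libraries). Gene by gene, 35 of the 42 had group means in this order. For 32 genes every mutant nTreg library was below every WT iTreg library. How many of all tested genes showed the same order of means, or the same separation of libraries, was not counted. Whether the 42 genes differ from other genes in this respect was therefore not tested.

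**Figure D5:**
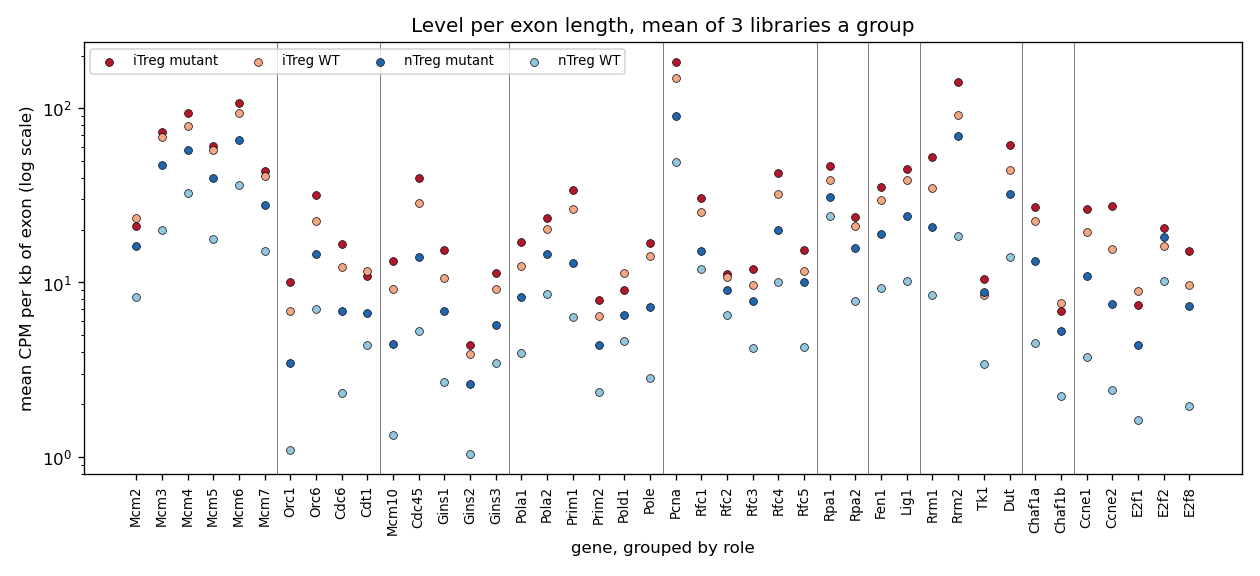
Mean CPM per kb of exon (log scale) for each of the 42 genes in the 4 groups, means of 3 libraries. Pcna is the highest gene and Gins2 the lowest in each of the 4 groups. Exon length is the value given in the count files.

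Levels between genes can be compared per kb of exon, as in the plot of levels by length. Pcna was the highest, at 184 ± 15.2 CPM per kb in mutant iTregs, 148 ± 16.8 in WT iTregs, 89.7 ± 28.6 in mutant nTregs and 49.2 ± 4.202 in WT nTregs (SD, n = 3 each). Gins2 was the lowest, at 4.39 ± 0.42 CPM per kb in mutant iTregs, 3.88 ± 0.44 in WT iTregs, 2.63 ± 0.64 in mutant nTregs and 1.03 ± 0.16 in WT nTregs. Among the helicase subunits, which act in equal numbers in the complex, Mcm6 was the highest and Mcm2 the lowest in each group. Mcm6 stood at 107 ± 10.4, 94.1 ± 4.13, 65.7 ± 13.0 and 36.1 ± 3.26 CPM per kb in mutant iTregs, WT iTregs, mutant nTregs and WT nTregs, and Mcm2 at 21.1 ± 0.55, 23.5 ± 0.86, 16.2 ± 3.55 and 8.20 ± 0.42. The exon length of a gene counts all its annotated exons, including those that the cells may not use.

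Other genes of the replication pathway, 74 that are not among the 42, moved less evenly. In nTregs 48 rose in the mutant and 2 fell, where 19.3% of all tested genes rose and 15.6% fell. The median log2 fold change of the 74 was 0.64. Without nTreg mutant replicate 1, 47 of the 74 rose and 2 fell, where 3359 and 2065 of 18387 tested genes did. The largest were Clspn, a checkpoint adaptor at the fork (1.94), Ccna2, the S phase cyclin A (1.85), and Top2a, the topoisomerase that untangles copied DNA (1.76). The smallest were Samhd1, which breaks down deoxynucleotides (-0.51, adjusted p = 0.00785), Rb1, the restrainer of E2F (-0.44, adjusted p = 0.00714), and Donson, a replication fork protein (-0.27, adjusted p = 0.0532). In iTregs 23 of the 74 rose and 4 fell, with a median of 0.32, where 14.0% of all tested genes rose and 11.4% fell. Without nTreg mutant replicate 1, 43 of the 74 rose and 4 fell, where 17.2% and 16.8% of all tested genes did. Pold2, the partner of Pold1, was among the 4 at -0.26 (adjusted p = 0.0488), and was singled out after its value had been seen. The difference of the effects was below 0 for 22 of the 74 and above 0 for 1, Rb1. Of all tested genes 7.18% passed below 0 and 6.12% above it. In WT cells 60 of the 74 were higher in iTregs and 4 lower, and in mutant cells 60 and 7. Of all tested genes 33.7% were higher and 35.7% lower in WT cells, and 33.2% and 35.0% in mutant cells. Of 30 mitosis genes 0 fell in either cell type, where 15.6% of all tested genes fell in nTregs and 11.4% in iTregs. In mutant nTregs 29 rose (median 1.66) and in mutant iTregs 23 (median 0.73), against 19.3% and 14.0% of all tested genes. Without nTreg mutant replicate 1 the mitosis genes that rose were 29 in nTregs (median 1.403) and 29 in iTregs (median 0.69). In that fit 3359 of 18387 tested genes rose in nTregs and 3164 in iTregs.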

How the data were processed

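RNA of 12 libraries, 3 per group, was sequenced as stranded mRNA libraries. The deposited files hold counts per gene made by the authors with featureCounts 1.5.2 on Ensembl release 87 (GRCm38), per the file headers, and STAR 2.5.2b is named in the submitters' processing notes. Per the file headers, reads aligning to several places were counted at each, so values of genes with near-identical copies are uncertain. Which of the 42 genes this touches was not tested.

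The counts were analysed with edgeR 4.0.16 and limma 3.58.1 in R 4.3.3. Genes were filtered by edgeR's default expression filter, which kept 17977, the 42 among them, and libraries were scaled by TMM. One quasi-likelihood model held all 12 libraries (8 residual degrees of freedom), with Benjamini-Hochberg adjustment over all tested genes and a threshold of 0.05. CPM use TMM-scaled totals. The 3 libraries per group limit the precision. No 2 libraries agreed within sampling noise. The script's test was checked on simulated data.

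The 42 genes and the other lists were chosen with earlier results of these data known. Values by library are given for the largest and smallest nTreg change in each role, genes that passed in iTregs and the 3 smallest p for the difference. Rrm2, Mcm3 and Orc1 in iTregs, and E2f2 in mutant cells of both kinds, were added after their values were seen. Alternatives were DESeq2 1.42.0, RLE scaling, scaling by library size alone, a fit of only the libraries compared, replicate blocks, leaving out each library, and filtering either not at all or at 1 CPM in 3 libraries.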

Additional observations from a re-analysis of the deposited data

Results flagged for a closer look

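For 24 of the 42 genes the mutant effect differed between the cell types by the test of the difference itself (edgeR, adjusted p below 0.05). All 24 passed below 0, where 7.18% of all tested genes passed below 0 and 6.12% above it. The differences, iTreg effect minus nTreg effect on the log2 scale, were -1.67 for E2f1, -1.38 for Chaf1b, -1.29 for Chaf1a, -1.25 for E2f8, -1.20 for Mcm10, -1.17 for Gins2, -1.15 for Mcm3, -1.13 for Mcm2, -1.12 for Cdc6 and -1.11 for Pole. They were -1.09 for Orc1, -1.08 for Mcm5, -1.07 for Tk1, -1.02 for Lig1, -0.95 for Cdc45, -0.83 for Rfc5, -0.81 for Pold1 and -0.80 for Fen1. The remaining ones were -0.78 for Mcm7, -0.70 for Cdt1, -0.68 for Mcm6, -0.67 for Prim1, -0.56 for Pola2 and -0.42 for Rfc2.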

How the results depend on the processing

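In WT cells all 42 genes were higher in iTregs under every alternative run, and in nTregs 41 to 42 rose in the mutant when 1 library was left out. In mutant cells 38 to 41 were higher in iTregs on leaving out 1 library. Over all tested genes 2485 to 3610 rose in mutant nTregs in those fits, and 5508 to 6028 were higher in mutant iTregs than in mutant nTregs. The count in iTregs depended most on the fit. The 6 genes higher became 2 with library size alone, 11 with no filter, 3 with a filter of 1 CPM in 3 libraries, 12 with DESeq2 and 22 with the 6 iTreg libraries alone, and 0 to 24 on leaving out 1 library. The calls over all tested genes moved too. They were 2517 of 17977 higher, and 1606 of 17977 with library size alone. With no filter they were 2380 of 30451, and with the filter of 1 CPM 2041 of 15308. With DESeq2 they were 2879 of 17967, and with the 6 iTreg libraries alone 2869 of 16150. The 1 gene lower became 2 with library size alone, 3 with the iTreg libraries alone, 0 with a replicate block by number, and 0 to 3 on leaving out 1 library. Over all tested genes 2044 were lower, 2921 with library size alone, 2805 with the iTreg libraries alone and 1359 with the block. The 24 differences below 0 became 39 with library size alone and 12 to 33 on leaving out 1 library. The cause of these shifts was not tested.

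With library size alone the iTreg values of Mcm5 and Rfc2 turned to -0.0214 and -0.0282, and E2f2 in mutant iTregs against mutant nTregs to -0.0321. With the block by number the iTreg values of Cdt1 and Chaf1b turned to 0.0489 and 0.0169. None of these 5 passed in either fit. Same-numbered libraries did not deviate together (correlations -0.064 to 0.05). With 3 libraries a group and noise of each library's own, this cannot show whether the numbers pair the samples. With the replicate block by number 42 genes rose in nTregs, 8 in iTregs, and 17 differences were below 0, or 20 with a block by genotype and number. Of all 17977 tested genes 2919 rose in nTregs and 1677 in iTregs with the block by number. Over all tested genes 821 differences were below 0 with that block, or 769 with the block by genotype and number.

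Over all genes the iTreg counts of 2517 higher and 2044 lower became 1677 and 1359 with the replicate block, 1606 higher with library size alone, and 773 to 3164 higher and 997 to 3096 lower on leaving out 1 library. The differences (1101 above 0, 1291 below) became 650 and 821 with the block, 571 and 769 with the block by genotype and number, 518 and 2393 with library size alone, and 494 to 1310 and 610 to 2146 on leaving out 1 library.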
